A study of Homo sapiens with 10 samples.

Results

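The 9 genes described here are neuroendocrine lineage genes, a set of interest for loss of the tumour suppressor RB in prostate cancer. They were 9 of the 20037 protein-coding genes on chromosomes 1 to 22, X and Y, and they were taken as a list of names. The first 4, POU3F2, NEUROD1, INSM1 and SOX2, encode transcription factors. The other five, CHGA, CHGB, SYP, NCAM1 and ENO2, encode markers that pathologists use to recognise neuroendocrine cells. For each gene, the summits of ChIP-seq peaks that lay in the gene or within 1 kb of its ends were taken (build hg38). A summit is the position of highest read coverage in a peak.

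Neuroendocrine cells are hormone-secreting cells with neuron-like features that are rare in the normal prostate. Prostate tumours can lose their luminal, androgen-dependent character under hormone treatment and take on neuroendocrine features, and loss of RB1 is a known part of that change. POU3F2 (also called BRN2) and SOX2 are neural and stem cell regulators that take part in it. The secretory markers are normally kept silent outside neural tissue by the repressor REST and its partners.

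The cells were 22RV1, an established human prostate cancer line, and all groups were transfected cells of this line. The 6 immunoprecipitated libraries form 3 pairs of 1 library each, so there are no replicates and no p-value is given for any difference. The pairs were RB1 siRNA with its control siRNA, a plasmid for an HA-tagged RB fragment named HA-RB(245-255) with its empty vector EV(245-255), and a plasmid for HA-RBN with its empty vector EV(RBN). HA is a short peptide tag, and the labels do not spell out RBN or name the antibody. The series title speaks of TRIM24, a chromatin reader and co-regulator of transcription. The genotype field places HA-RB(245-255) with the controls while its title names the construct, and the title was followed. The series' design text also gives a slightly different first residue for that fragment than the titles do. A further 4 samples are IgG mock immunoprecipitations, which were not analysed here. They belong to the libraries of the siRNA and 245-255 pairs, and the RBN pair has no IgG sample. How far RB1 was depleted, or how much of each plasmid product was made, cannot be read from peak lists.

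The lists held between 21666 peaks (control siRNA) and 252425 peaks (HA-RBN), and they are of different kinds. In EV(RBN) and HA-RBN the peaks were narrow, with median widths of 450 and 522 bp. In the other libraries the median interval was 83581 bp (control siRNA), 51167 bp (RB1 siRNA), 22317 bp (EV(245-255)) and 18225 bp (HA-RB(245-255)), and each interval lists 1 summit. In these wide lists a gene can lie under an interval whose only listed summit is far away, and a lower stack of reads at the gene is then not listed. Values are therefore given as the number of DNA fragments stacked at a summit, which follows from the authors' fold enrichment and p-value (see the processing account), and as enrichment, that number over the library's background of 0.413, 0.539, 0.187, 0.396, 0.437 and 0.634 fragments with each control before its partner, in the order of pairs used above (the library order below). Poisson and binomial 95% intervals cover counting error only, and the reads behind them carry no molecular identifiers. Gene end summits of all genes had medians of 24 and 26 fragments in the siRNA pair (control first), 10 and 10 in the 245-255 pair, and 4 and 8 in the RBN pair.

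A summit was listed in 4 of the 9 genes with control siRNA, where 42.3% of all protein-coding genes had one, and in 4 of 9 with RB1 siRNA, where 51.2% had one. The 245-255 pair listed 5 of 9 in the empty vector (71% of all genes) and 5 of 9 with the fragment (71.3%). The RBN pair listed 8 of 9 in the empty vector (85.2%) and 9 of 9 with HA-RBN (91.8%). The members' count followed the length of the list, as the share over all genes did. Apart from NCAM1, which spans 317017 bp, the genes are between 2512 and 13844 bp long. Of these 8 shorter genes, 3, 3, 4, 4, 7 and 8 had a summit in the same library order, where genes of 2 to 20 kb had one in 26.7%, 33.1%, 54.7%, 53.7%, 78% and 88.4% of cases. Summits within 1 kb of a gene end, the nearest these lists come to a promoter measure for all genes, were found in 3, 3, 3, 2, 4 and 7 of the 9, against 28.1%, 33.5%, 45.4%, 45.5%, 60.2% and 73.4% of all genes.

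**Figure D1:**
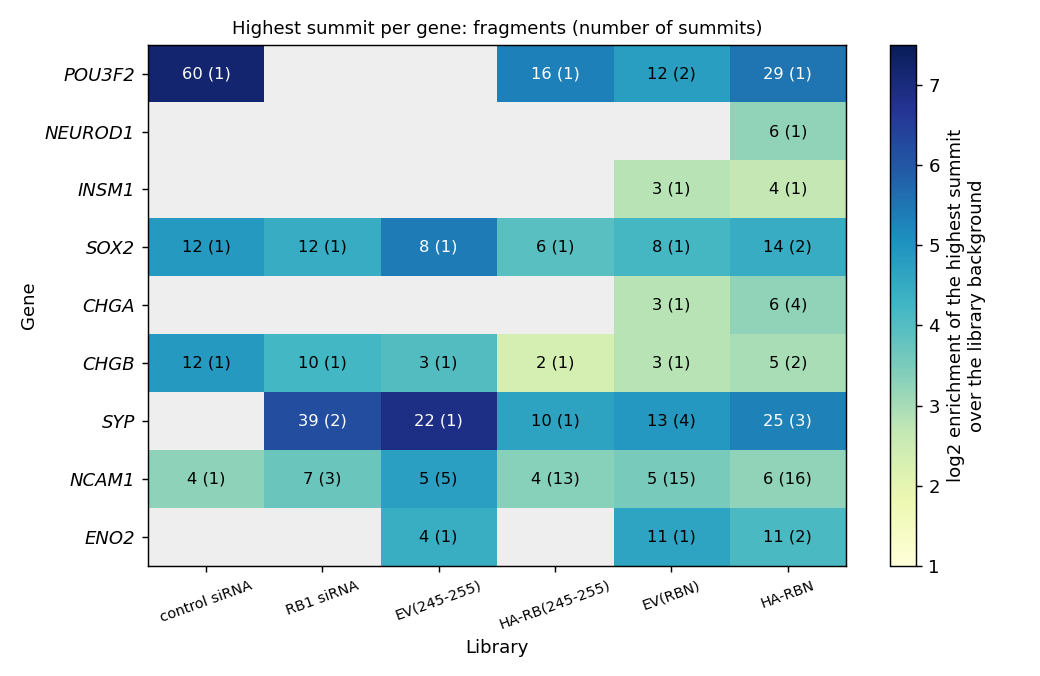
Highest listed summit of each gene (rows) in each library (columns): the cell gives its fragments, the number of summits in brackets, and colour gives log2 enrichment over the library background; grey cells have no listed summit. POU3F2 reached 60 fragments with control siRNA and SYP 39 with RB1 siRNA, while NEUROD1 had its only listed summit in HA-RBN.

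Among the transcription factors, POU3F2 carried the strongest summit of the set. POU3F2, a POU-domain factor of neural progenitors, lies on chromosome 6 from 98834574 to 98839458 and is read toward higher coordinates. Its control siRNA summit held 60 fragments (45.8 to 77.2) and lay 5 bp after the start site, an enrichment of 145; 74 fragments would solve the deposited values too. The HA-RB(245-255) summit lay 7 bp after the start with 16 fragments (9.15 to 26.0; 21 is also a solution), an enrichment of 40.4. In EV(RBN) a summit of 12 fragments lay 622 bp before the start (enrichment 27.5), and in HA-RBN a summit of 29 fragments lay 350 bp before it (enrichment 45.7). EV(RBN) also listed 2 fragments 585 bp past the other end.

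With RB1 siRNA and in EV(245-255), no summit of POU3F2 met the rule, but in each the nearest summit fell just outside it. With RB1 siRNA it lay 1210 bp before the start, 210 bp beyond the 1 kb limit, with 20 fragments (12.2 to 30.9) and an enrichment of 37.1. In EV(245-255) it lay 1028 bp before the start, 28 bp beyond the limit, with 5 fragments (1.62 to 11.7) and an enrichment of 26.7. All 6 libraries thus had a listed summit within 1210 bp of the POU3F2 start. The RB1 siRNA interval that holds this summit is 235620 bp long and ends 1010 bp before the gene. No RB1 siRNA interval lay on POU3F2 or within 1 kb of it (0% of that stretch was covered), while the control siRNA interval covered 100% of it. The listing of POU3F2 with control siRNA only thus held when absence was judged by intervals in place of summits, and ended with a window of 5 kb. However, 77.1% of control siRNA peaks and 68.3% of RB1 siRNA peaks carry one identical −log10 p-value within their list, whatever their height. Where an interval ends therefore does not measure binding, and the missing RB1 siRNA interval does not show a loss. The lists do not give the number of fragments at the start with RB1 siRNA. The fragment numbers at these 2 summits, 60 and 20, belong to positions more than 1 kb apart and were not compared.

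SOX2, a stem cell and neural factor of the SOX family, had a summit in all 6 libraries. It lies on chromosome 3 from 181711925 to 181714436, inside the long noncoding gene SOX2-OT. Summits lay before the start site at 448 bp with control siRNA (12 fragments), 214 bp with RB1 siRNA (12 fragments), 159 bp in EV(245-255) (8 fragments), 457 bp in EV(RBN) (8 fragments) and 386 bp in HA-RBN (14 fragments). These 5 positions fall within 298 bp of each other. With control siRNA, RB1 siRNA and EV(245-255) they held fewer fragments than the median gene end summit (24, 26 and 10). In EV(RBN) and HA-RBN they held more than that median (4 and 8). In HA-RB(245-255) the listed summit lay 1170 bp after the start with 6 fragments, and HA-RBN listed a second one close to it, 1129 bp after the start, also with 6 fragments. Enrichments were 29.1, 22.3, 42.7, 15.2, 18.3 and 22.1 in library order, with the HA-RB(245-255) value from the site inside the gene. The SOX2 start was the one site of the 9 genes with summits from at least 5 libraries. Of all genes 31.2% had such a site, and of genes of 2 to 20 kb 20.4%.

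The upstream sequences of POU3F2 and SOX2 are shown because their summits fall in or beside them. SYP, described below, is shown for the same reason. They are the 250 bases before the start site from RefSeq (GRCh38.p14), written 5′ to 3′ in the direction of the gene, with each CpG dinucleotide in capitals. POU3F2 spans chr6:98834324-98834573 on the plus strand, SOX2 chr3:181711675-181711924 on the plus strand and SYP chrX:49200194-49200443 on the minus strand.
POU3F2: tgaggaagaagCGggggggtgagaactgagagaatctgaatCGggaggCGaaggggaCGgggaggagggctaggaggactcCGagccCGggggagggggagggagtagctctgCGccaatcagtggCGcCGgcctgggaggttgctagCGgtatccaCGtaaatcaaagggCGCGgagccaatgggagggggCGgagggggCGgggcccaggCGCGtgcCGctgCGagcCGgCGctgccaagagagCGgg
SOX2: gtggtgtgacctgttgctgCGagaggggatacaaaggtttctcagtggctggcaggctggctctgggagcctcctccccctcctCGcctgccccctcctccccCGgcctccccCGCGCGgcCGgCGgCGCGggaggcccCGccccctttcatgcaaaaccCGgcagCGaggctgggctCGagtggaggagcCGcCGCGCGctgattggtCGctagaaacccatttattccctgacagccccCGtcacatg
SYP: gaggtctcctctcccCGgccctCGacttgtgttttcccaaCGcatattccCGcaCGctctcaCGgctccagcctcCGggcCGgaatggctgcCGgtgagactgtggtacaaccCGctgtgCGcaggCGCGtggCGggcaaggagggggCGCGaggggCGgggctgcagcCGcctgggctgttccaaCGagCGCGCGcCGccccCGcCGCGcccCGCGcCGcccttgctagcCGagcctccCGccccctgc
These windows hold 22, 20 and 31 CpG dinucleotides, where the median over 15843 protein-coding promoters was 17 and the middle 50% ran from 6 to 26. RefSeq entries were matched for 6 of the 9 genes. The other windows held 24 (NEUROD1), 21 (CHGA) and 30 (ENO2), so all 6 lay above the median. The GC box letters GGGCGG, on either strand, were in 6 of 6 windows and in 56.0% of all promoters. The E2F letters TTTGGCGC, TTTCGCGC, TTTCCCGC and TTTGCCGC, searched on both strands because E2F factors are the partners of RB, were in 0 of 6 and in 3.72% of all. The REST motif letters CAGCACC and GGACAGC were each in 0 of 6, against 6.02% and 5.35% of all. These are matches of letters in 250 bases and say nothing of binding.

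NEUROD1 and INSM1 were listed only in the RBN pair, and weakly. NEUROD1, a basic helix-loop-helix factor of neurons and pancreatic endocrine cells, lies on chromosome 2 from 181668295 to 181680517 and is read toward lower coordinates. Its single summit, in HA-RBN, lay 2183 bp after the start site with 6 fragments (2.20 to 13.1), and another of 6 fragments lay 1070 bp before the start, outside the limit. INSM1, a zinc finger factor of neuroendocrine cells on chromosome 20 from 20368104 to 20370949, had 3 fragments in EV(RBN) and 4 in HA-RBN, at positions 37 bp apart in the middle of the gene. In the wide lists each of these genes touched an interval whose summit was elsewhere. For NEUROD1 with control siRNA the interval was 654076 bp long and its summit of 32 fragments lay 211341 bp away, 128 bp from an end of ITPRID2. With RB1 siRNA it was 737293 bp long, with 44 fragments at the same gene. For INSM1 the nearest summits in those 2 lists lay 11652 and 12406 bp away with 26 and 11 fragments. A stack lower than these at NEUROD1 or INSM1 would not have been listed, so their absence there is not evidence that nothing was bound.

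**Figure D2:**
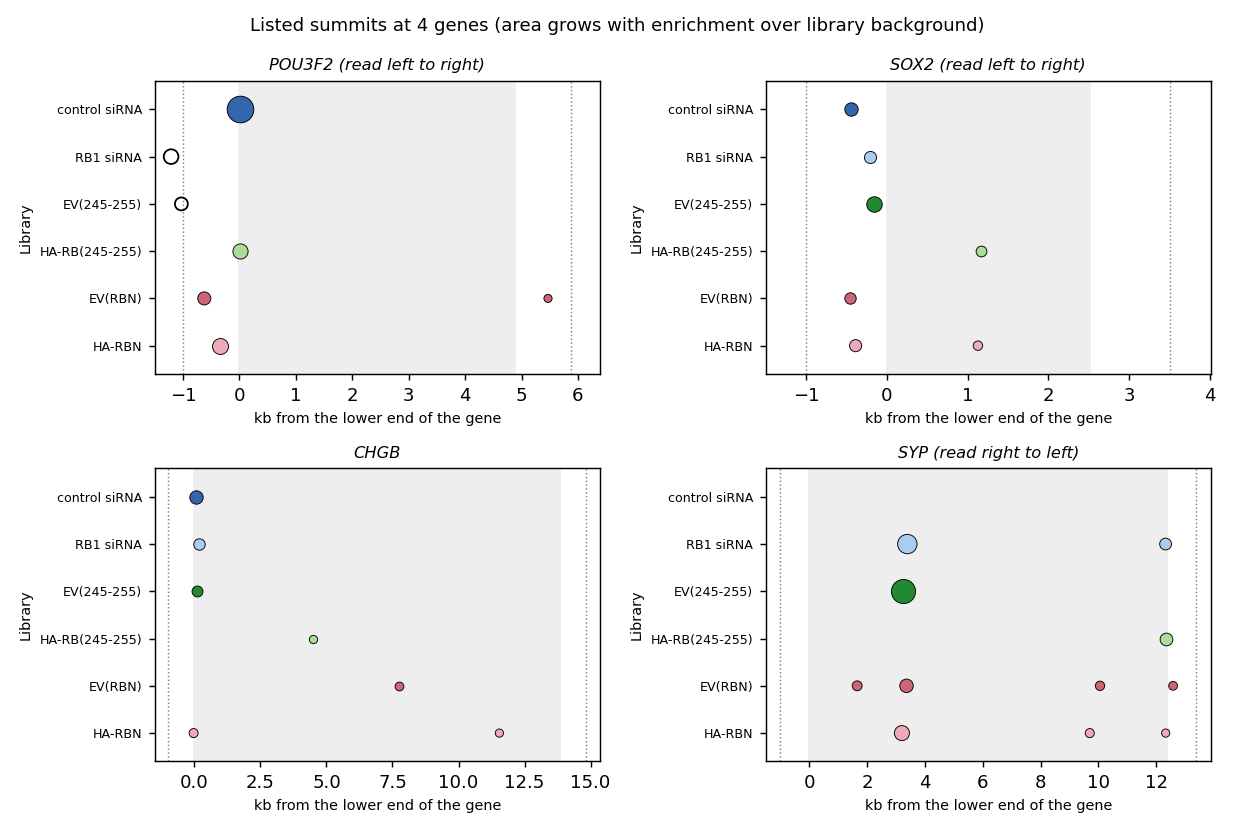
Positions of listed summits along POU3F2, SOX2, CHGB and SYP (x axis, kb from the lower end of the gene; grey, the gene; dotted lines, the 1 kb limits) in the 6 libraries (rows), with marker area growing with enrichment. Open circles at POU3F2 are the RB1 siRNA and EV(245-255) summits, 1210 and 1028 bp before the gene; SOX2 summits gather before the start in 5 libraries and SYP summits gather at a site inside the gene in 4.

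The secretory granule genes were weaker than the POU3F2 and SYP sites. CHGB encodes chromogranin B, an acidic protein of secretory granules, and lies on chromosome 20 from 5911510 to 5925353. It was listed in all 6 libraries. At its lower end, summits lay within 190 bp of each other in 4 libraries, with 12 fragments with control siRNA (up to 21.0), 10 with RB1 siRNA (up to 18.4), 3 in EV(245-255) and 5 in HA-RBN. HA-RB(245-255) and EV(RBN) listed only summits inside the gene, 4477 and 7737 bp from that end, with 2 and 3 fragments. Enrichment at the lower end was 29.1, 18.6, 16.0 and 7.89 in the 4 libraries. The CHGB site therefore stood at less than the median of gene end summits in each of them (24, 26, 10 and 8 fragments).

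CHGA, chromogranin A, the most used blood marker of neuroendocrine tumours, lies on chromosome 14 from 92922664 to 92935285. It was listed only in the RBN pair. EV(RBN) had 1 summit of 3 fragments 612 bp after the start site. HA-RBN had 4 summits of 4 to 6 fragments spread over the gene, and the one at its far end, 835 bp past it, also lies within 1 kb of an end of ITPK1. No HA-RBN summit lay within 500 bp of the EV(RBN) one. In the wide lists the interval over CHGA had its summit elsewhere, with control siRNA 128372 bp away at GOLGA5 (52 fragments).

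SYP, which encodes the synaptic vesicle protein synaptophysin, had the second strongest site of the set, and it was not at its start. SYP lies on chromosome X from 49187815 to 49200193 and is read toward lower coordinates. Summits 8983 bp (RB1 siRNA), 9120 bp (EV(245-255)), 9011 bp (EV(RBN)) and 9170 bp (HA-RBN) after the start site fell within 187 bp of each other. They held 39 fragments (27.7 to 53.3), 22 (13.8 to 33.3; 28 is also a solution), 13 (6.92 to 22.2) and 25 (16.2 to 36.9), with enrichments of 72.4, 117, 29.8 and 39.4. No other gene in the RefSeq table has an end within 1 kb of this site. It exceeded the median of gene end summits in each of these libraries, although it is not a gene end.

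At the SYP start itself, in the stretch printed above and just past it, summits were lower. They held 11 fragments 57 bp after the start with RB1 siRNA, 10 fragments 38 bp after it in HA-RB(245-255), 3 fragments 54 bp after it in HA-RBN and 3 fragments 201 bp before it in EV(RBN). The long noncoding gene SYP-AS1 overlaps this end, so a summit here cannot be assigned to one of them. The RBN pair also shared a weak site 2324 and 2678 bp after the start, with 4 and 5 fragments, beside the other end of SYP-AS1. With control siRNA, SYP lay under an interval of 861956 bp with its one summit 69413 bp away, 187 bp from an end of PPP1R3F, with 96 fragments. A stack of the height seen with RB1 siRNA would not be the summit of that interval, so the listing of SYP with RB1 siRNA only does not show a gain.

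NCAM1 and ENO2 complete the set. NCAM1, the neural cell adhesion molecule CD56, lies on chromosome 11 from 112961420 to 113278436 and held 53 of the 95 member summits, all of 1 to 7 fragments. The number per library was 1, 3, 5, 13, 15 and 16 in library order. As density these were 0.313, 0.940, 1.57, 4.08, 4.70 and 5.02 summits per 100 kb, and the median over the 3356 genes of at least 100 kb was 0.656, 0.955, 2.48, 3.10, 4.50 and 7.98. NCAM1 lay below that median in 4 libraries and above it in HA-RB(245-255) and EV(RBN). Near the lower end, control siRNA and RB1 siRNA each had 4 fragments at positions 185 bp apart, about 2 kb into the gene and beside an end of the antisense gene NCAM1-AS2. HA-RBN had 6 fragments 122 bp before that end. Every NCAM1 site was supported by at most 2 libraries.

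ENO2, the neuron-specific form of the glycolytic enzyme enolase, lies on chromosome 12 from 6914580 to 6923697 between close neighbours. In EV(245-255) a summit of 4 fragments lay 568 bp after its start and within 1 kb of an end of LRRC23. In HA-RBN one of 11 fragments lay 1011 bp after the start and one of 7 fragments 792 bp before it, and the latter is likewise within 1 kb of that end. The EV(RBN) summit, of 11 fragments, lay 771 bp past the other end of ENO2 and within 1 kb of an end of ATN1, which encodes atrophin-1. The HA-RB(245-255) summit nearest to ENO2 was likewise on the ATN1 side, 1924 bp outside the gene with 13 fragments. With control siRNA and RB1 siRNA the interval over ENO2 had its summit near C12orf57, 20534 and 20527 bp away, with 164 and 227 fragments. The one ENO2 summit more than 1 kb from a neighbour's end was thus the HA-RBN summit inside the gene.

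The recurrence of sites sums this up over the genes. Linking summits at most 500 bp apart, 4 of the 9 genes (POU3F2, SOX2, CHGB and SYP) had a site with summits from at least 4 libraries, where 47.5% of all genes and 33.3% of genes of 2 to 20 kb did. None had one from all 6, where 15.1% of all genes and 9.72% of genes of 2 to 20 kb did. In CHGA and NEUROD1 no site was listed in more than 1 library.

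The siRNA pair asks whether depletion of RB goes with other binding at these genes. SOX2, CHGB and NCAM1 were listed in both libraries, and NEUROD1, INSM1, CHGA and ENO2 in neither. SYP was listed with RB1 siRNA only, as were 18.2% of all genes, and POU3F2 with control siRNA only, as were 9.32% of all genes. Judged by intervals, the SYP listing ended, since a control siRNA interval lay over the gene, and the POU3F2 listing held. Where an interval ends does not measure binding in these lists, so the latter does not show a loss. With a 5 kb window the POU3F2 listing ended, since the RB1 siRNA summit before the gene was then counted. Ratios were taken at summits at most 500 bp apart, as log2 of RB1 siRNA over control siRNA fragments relative to the median of 3254 shared gene end summits. SOX2 had 12 and 12 fragments, a relative log2 ratio of -0.26 (-1.55 to 1.02). CHGB had 10 and 12, at -0.53 (-1.90 to 0.81), and NCAM1 4 and 4, at -0.26 (-2.69 to 2.16). All 3 intervals included 0, and none of the 3 lay more than 1 log2 unit from the median, as 2.55% of all shared gene end summits did. The SOX2 and NCAM1 intervals held 1 log2 unit in either direction, so changes of that size were not detectable there at this depth.

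The 245-255 pair asks the same of the RB fragment. SOX2, CHGB, SYP and NCAM1 were listed in both libraries, NEUROD1, INSM1 and CHGA in neither. POU3F2 was listed in HA-RB(245-255) only, as were 11.3% of all genes, and ENO2 in EV(245-255) only, as were 11.1%. The POU3F2 summit of EV(245-255) lay 28 bp outside the limit. Although 4 genes had summits in both libraries, 0 member summits lay within 500 bp of each other, so no ratio could be taken, and for all genes there were 4711 shared gene end summits, of which 6.09% lay more than 1 log2 unit from their median. At SOX2 the listed summit was before the start in EV(245-255) and inside the gene in HA-RB(245-255), and at SYP it was at the inner site in EV(245-255) and at the start in HA-RB(245-255). The SYP interval of HA-RB(245-255) is 5046 bp long and covers 35.1% of the gene with its margins. In none of these genes does a list say how high the stack was at the other library's summit.

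The RBN pair, with narrow peaks, allowed most of the ratios. NEUROD1 was listed in HA-RBN only, as were 8.85% of all genes, and the other 8 genes in both. No member was listed in EV(RBN) only, as were 2.28% of all genes. POU3F2 had 29 fragments in HA-RBN and 12 in EV(RBN), which is the typical rise between these libraries, with a log2 ratio of -0.003 (-1.018 to 1.102) relative to the median of 7818 shared gene end summits. SOX2 had 14 and 8, at -0.47 (-1.82 to 0.99). The inner SYP site had 25 and 13, at -0.33 (-1.35 to 0.76). INSM1, at 4 and 3, had -0.86 (-3.42 to 1.91), and the weaker SYP sites had -0.95 (5 and 4 fragments) and -1.28 (3 and 3 fragments). The NCAM1 site, at 2 and 2 fragments and 113438 bp inside the gene, also had -1.28. All 7 intervals included 0. The 2 summits more than 1 log2 unit below the median, SYP at its start and NCAM1, rest on 2 or 3 fragments, and 7.96% of all shared gene end summits lay that low (13.3% lay that far in either direction). The gene end median used for scaling was 1.28 log2 units. With each library scaled by its own background it was 0.54, and POU3F2, SOX2 and the inner SYP site then lay above 0 (0.74, 0.27 and 0.41), so no direction is given for any of them. SYP at its start and NCAM1 were then each at -0.54. Relative to the median of all shared summits (0.68), gene end or not, each was at -0.68. Under neither scaling did they pass 1 log2 unit.

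**Figure D3:**
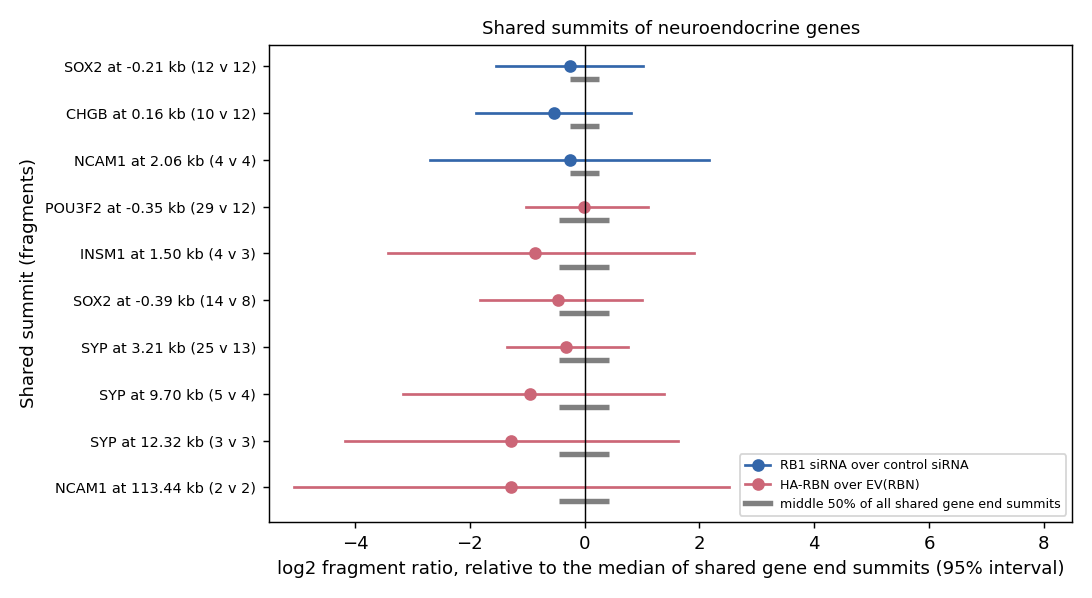
Log2 fragment ratios (points) with 95% intervals (lines) at the 10 summits of these genes that both libraries of a pair share, relative to the median of all shared gene end summits (0); grey bars span the middle 50% of those. Labels give the distance from the lower gene end and the fragments in the condition and control library; every interval crosses 0.

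The authors' own p-values do not rank these sites in the wide lists. In the control siRNA list 77.1% of peaks carry one identical −log10 p-value, among them POU3F2 with 60 fragments and SOX2 and CHGB with 12. In the narrow lists they do differ. In HA-RBN the −log10 q-value was 11.4 at POU3F2, 7.74 at the inner SYP site and 6.57 at the SOX2 start, and in EV(RBN) it was 3.87, 5.16 and 3.84 at the same sites. POU3F2, SOX2 and SYP were the members with a −log10 q of at least 5 in HA-RBN, where 38.2% of all genes had such a peak. In EV(RBN) SYP alone reached it, where 11.1% of genes did.

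Other genes of the neuroendocrine program were read the same way, at gene ends. Of 22 further neuroendocrine and neural transcription factors, 6, 5, 10, 7, 9 and 16 had a gene end summit in library order, and of 28 further granule, synaptic and neuronal genes 3, 5, 11, 12, 10 and 20. For all genes the shares were 28.1%, 33.5%, 45.4%, 45.5%, 60.2% and 73.4%, as given above, and the neuronal genes had 10.7%, 17.9%, 39.3%, 42.9%, 35.7% and 71.4%. These were lower in every library, but by less than 1 gene in HA-RB(245-255) and HA-RBN. Counted over the gene with 1 kb on each side, the neuronal genes had 21.4%, 46.4%, 71.4%, 78.6%, 82.1% and 96.4%. This was slightly above the share of all genes in HA-RB(245-255) (71.3%) and HA-RBN (91.8%). It was about equal to that share in EV(245-255) (71%) and below it in the other libraries. Some single genes were listed at an end in 5 or all 6 libraries, though not all with many fragments. The homeobox factor LHX2 was listed at an end in all 6 libraries, with 40, 44, 16, 13, 4 and 15 fragments. ONECUT2, a factor that takes part in the turn to neuroendocrine prostate cancer, had 18, 32, 22, 19, 6 and 18. NEUROD4 was also listed in all 6, with 10, 15, 8, 7, 3 and 7 fragments. Each was below the median gene end summit of its library (24, 26, 10, 10, 4 and 8). The vesicle calcium sensor SYT1 was listed in all 6 with 16, 10, 6, 16, 10 and 14. It was below that median with control siRNA, with RB1 siRNA and in EV(245-255). SNAP25, a protein of vesicle fusion, was listed in 5 libraries with up to 26 fragments, as were SYT4 and the granule enzyme CPE.

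Genes that restrain or drive the program were also read. Of 15 restrainers, such as REST partners and NOTCH effectors, 9, 9, 10, 11, 13 and 12 had a gene end summit. As shares these were 60%, 60%, 66.7%, 73.3%, 86.7% and 80%. All genes had 28.1%, 33.5%, 45.4%, 45.5%, 60.2% and 73.4%. The REST partner HDAC1 had 32, 44, 28, 25, 8 and 17 fragments, and the NOTCH effector HEY1 had 28, 40, 16, 16, 4 and 20. Of 11 genes named as drivers, 8, 7, 7, 8, 9 and 8 had one (72.7%, 63.6%, 63.6%, 72.7%, 81.8% and 72.7%). Among them were EZH2, DNMT1, the mitotic kinase AURKA (41, 49, 22, 22, 14 and 20 fragments) and CTNNB1. Of 12 luminal prostate genes, 2, 4, 7, 7, 10 and 9 had one (16.7%, 33.3%, 58.3%, 58.3%, 83.3% and 75%). Restrainers and drivers in HA-RBN, and luminal genes with RB1 siRNA and in HA-RBN, thus lay near the share of all genes. The pioneer factor FOXA1 was listed in 5 libraries with 30 fragments with RB1 siRNA and 17 in HA-RBN. These lists differ in gene length and in how broadly their genes are used, and differences between them were not tested.

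**Figure D4:**
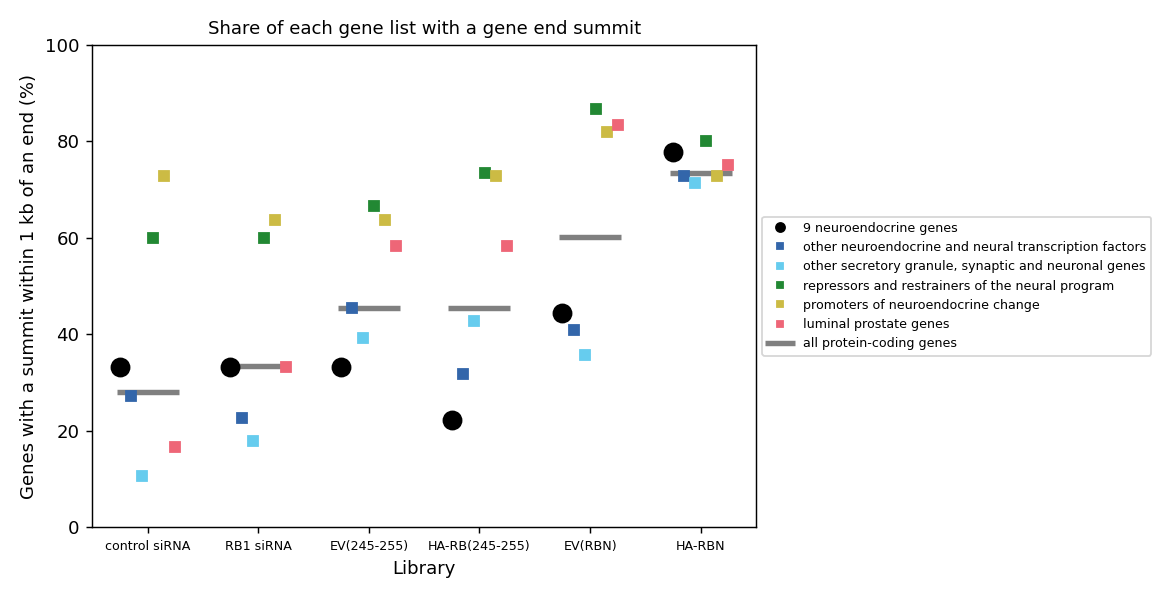
Share of genes with a summit within 1 kb of an end (y axis, percent) in each library (x axis) for the 9 neuroendocrine genes (large black circles), 5 further lists (squares) and all protein-coding genes (grey dashes); symbols of a library are set side by side to be seen. The 9 genes lie at 3, 3, 3, 2, 4 and 7 of 9. Restrainers lie above the grey dashes in every library, though near them in HA-RBN, and drivers lie above in all but HA-RBN.

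The pattern of libraries in which a gene was listed set some members beside other genes. Measured as an identical pattern over the 6 libraries, SOX2, CHGB and NCAM1 (listed in all 6) shared theirs with 29.2% of all genes, among 88 further list genes with 33, such as AURKA and CPE. SYP, missing in control siRNA alone, shared its pattern with 11.8% of all genes and with 11 list genes, among them DLL3, ELAVL3 and ELAVL4. ENO2 shared its pattern with 4.88% of all genes and with 8 list genes, among them FOXA2, HOXB13 and KLK2. NEUROD1 shared its pattern with 3.25% of all genes and with 3 of the 88 list genes, GRP, SCG2 and SOX1. POU3F2 shared its pattern with SCG5 alone of the list genes and with 0.958% of all genes. That pattern rests on the window, since the RB1 siRNA and EV(245-255) summits lay 210 and 28 bp beyond the limit. INSM1 and CHGA shared theirs with each other, with 6.19% of all genes and with 0 further list genes.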

How the data were processed

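ChIP-seq libraries of 22RV1 cells were described from the 6 deposited peak lists, 1 per immunoprecipitated library and not pooled. The submitters' processing notes list MACS2 2.1.0, Bowtie 1.1.2, Trimmomatic 0.33, bcl2fastq 2.17 and hg38 without saying what each did. Caller settings, control libraries and sequencing depth are not given there. The deposited lists have no header. They give the authors' score, which equals the −log10 p-value times 10 cut to a whole number, their fold enrichment (a ratio of summit over local background), −log10 p-value, −log10 q-value and the summit's distance from the peak start. These are the authors' values. Fold enrichments and p-values were compared between lists only through the fragment numbers and enrichments computed from them. The q-values of different lists stand side by side, and no ratio of them was taken.

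Fragment numbers were computed from the deposited fold enrichment, (pileup + 1)/(background + 1), and the Poisson tail at the pileup cut to a whole number. In the 4 wide lists pileups came in steps of 0.0166, 0.0176, 0.0434 and 0.0512, each taken as 1 fragment. The lowest solution was used where several fitted. At least 99.98% of peaks were solved. The solving was tested on simulated peaks made with the same formulas and known steps. That test did not cover the size of the steps in the wide lists or their reading as 1 fragment.

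Gene coordinates were those of RefSeq (GRCh38.p14), and strand and start sites from its promoter table. All 97 symbols of the lists matched. All members are named, and of each further list at most 4 genes by libraries with a gene end summit, then by fragments. Alike genes have the identical listing pattern, and at most 3 per member are named, in alphabetical order. Some genes these rules would name are not reported here. Members and lists were chosen with earlier results of these data known. Ratios carry exact conditional binomial 95% intervals. Python 3.11.15, numpy 2.4.6, pandas 2.3.3, scipy 1.17.1 and matplotlib 3.10.9 were used.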

Additional observations from a re-analysis of the deposited data

How the results depend on the processing

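Which genes count as listed depended on the rule. At −log10 q of at least 5 the number of the 9 genes was 0 in each of the 4 wide lists. Such peaks were rare there for all genes too (0.559%, 0.309%, 0.459% and 0.664% in library order). The number at that q was 1 in EV(RBN) (11.1% of all genes) and 3 in HA-RBN (38.2%). With summits at gene ends only it was 3 in EV(245-255) (45.4% of all genes), 2 in HA-RB(245-255) (45.5%) and 4 in EV(RBN) (60.2%). A 5 kb window gave 8 in EV(245-255) (78.5% of all genes). Lists of equal length (20860 peaks) gave 3 for EV(245-255) (47.4% of all genes), 3 for HA-RB(245-255) (48.9%), 5 for EV(RBN) (46.8%) and 3 for HA-RBN (56.0%). At least 10 fragments left 1 for EV(245-255) (35.2%), 2 for HA-RB(245-255) (35.0%), 3 for EV(RBN) (16.5%) and 4 for HA-RBN (49.2%). Every other count stayed within 1.5 times the one reported.

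Genes listed in one library of a pair were at most 1 in each direction, so these counts moved readily. The shares of all genes given above hold for the main rule only. Shares under the altered rules are not given, so the counts below are not read as results about the members. For RB1 siRNA only, the count was 0 at that q and 0 when absence was judged by intervals. For control siRNA only, it was 0 with the 5 kb window and 0 at that q, and stayed 1 by intervals. For HA-RB(245-255) only, it was 2 at gene ends, 0 at that q and 0 by intervals. For EV(245-255) only, it was 3 at gene ends, 2 with the 5 kb window and 0 at that q, at 10 fragments and by intervals. For HA-RBN only, it was 3 at gene ends, 2 at that q, and 0 with the 5 kb window and with equal lengths, and it stayed 1 by intervals. For EV(RBN) only, it was 2 with equal lengths against 0. The cause was not tested, apart from what the settings change by construction.

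Shared summits of the RBN pair numbered 3 at a distance of 250 bp against 7, and the 245-255 pair had 1 at 1000 bp against 0. All 46 alternative values of single ratios stayed inside their intervals. No paired analysis was possible because each group has 1 library. Depth limits every ratio, with 2 to 29 fragments at shared summits.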
